A study of Homo sapiens with 59 samples.

Results

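Gene expression was compared between HepG2 cells given a hot water extract of dried ginger rhizome (Zingiberis Rhizoma) at 500 ug/mL and HepG2 cells given vehicle. The members were chosen by their labels: the 3 libraries of the high dose of Zingiberis Rhizoma and the 3 vehicle libraries, 6 of the 59 libraries of the series, with every gene of the table. HepG2 is a line from a human hepatocellular carcinoma that makes many of the plasma proteins of a hepatocyte. All cells were collected after 24 h. Vehicle is labelled as 0.1% DMSO, whereas the design text of the series gives 2%, and the labels of the extract wells name no DMSO. The other groups used here are the same extract at 100 and 20 ug/mL, Zingiberis Rhizoma Recens (ginger labelled as fresh) at 500 ug/mL and Scutellariae Radix, a skullcap root, at 500 ug/mL, with 3 libraries each. The treatment protocol describes water extracts of dried plants in general. The titles of the vehicle samples carry the number 1 and those of both gingers the number 2 within 1 batch letter. The meaning of that number is not stated, so the comparison with vehicle may cross a handling group, and values of 500 against 20 ug/mL of the same extract, which carry the same number, are given as a comparison without vehicle.

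Ginger rhizome holds pungent phenols, the gingerols and shogaols, the latter rising when the rhizome is dried, and sugars and other polar compounds go into a water extract. The gene families described here are known as follows. Immediate early genes such as FOS and EGR1 code for transcription factors that growth factor and stress signals switch on through MAP kinases. Metallothioneins are small cysteine-rich proteins that bind zinc, and the zinc-sensing factor MTF1 switches on their genes through metal response elements. NRF2, ATF4, hypoxia-inducible factors and the aryl hydrocarbon receptor each drive a set of genes that answers, in turn, electrophiles, amino acid shortage, low oxygen and planar aromatic compounds. A hepatocyte keeps up fibrinogen, complement, bile acid and sterol genes through its own factors such as HNF4A, CEBPA and the bile acid receptor NR1H4.

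The 6 libraries held between 24526982 and 27510150 counted fragments. The mitochondrial share was 9.09 to 9.88% in vehicle and 9.79 to 11.2% with dried ginger at 500 ug/mL. Replicate 1 of the dried ginger group stood apart: a chi-square of its counts averaged 15.8 and 11.4 per gene against its group mates, which gave 3.76 between themselves, and vehicle pairs gave 1.99 to 3.22. Of 9384 genes at 10 CPM (counts scaled to a common library size) or more, 35 were over 1.5 times and 16 were below the mean of the other 2 libraries by that factor in replicate 1, so values without that library are given where it matters. The summed level of 12 liver line markers was 44570 to 45381 CPM in vehicle and 36593 to 41430 CPM with dried ginger, so the defining markers of the line were present in both groups. Of 22 markers of other cell types, COL1A2, DCN, HBB and INS were at 0 in all 6 libraries, and PTPRC and CD3E had 0 counts in vehicle and 1 count in the dried ginger group. HBA1, another haemoglobin gene, had 25, 17 and 14 counts in vehicle and 50, 41 and 49 with dried ginger, a log2 change of 1.31, called higher. COL1A1 had 57 counts in the vehicle libraries together and 46 with dried ginger, and was not called. The summed level of all 22 was 1753 to 1773 CPM in vehicle and 3119 to 3151 CPM with dried ginger. Without LYZ, KRT19, CD68 and ACTA2, which all changed, it was 157 to 161 against 155 to 158 CPM. That rest still holds called markers such as HBA1, PDGFRB and RGS5. Most of that rest was EPCAM, at a mean of 143.3 CPM in vehicle and 133.4 CPM with dried ginger. The near-equal rest thus says little about other cell types. The labels do not say whether the 3 samples of a group were grown separately, so the spread behind the p-values could be technical. For each gene that spread is shared by all 20 groups of the series, so it is not the dried ginger group's own. In bulk RNA, fewer cells of a kind and less RNA per cell cannot be told apart.

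Dried ginger at 500 ug/mL changed a large share of the transcriptome by small amounts. A gene is called here when edgeR's quasi-likelihood test gives a Benjamini-Hochberg adjusted p below 0.05. Of 16641 genes tested, 3583 (21.5%) were called higher and 3475 (20.9%) lower than vehicle, 7058 (42.4%) in all. The 3 libraries of each group did not overlap in 8248 genes (49.6% of those tested). The median absolute log2 change of the called genes was 0.34, and 4746 of them (67.2%) moved by less than 0.5 on the log2 scale. Past a log2 change of 1 the balance shifted to rises, with 590 called genes higher (3.55%) and 260 lower (1.56%). Past 2 there were 126 higher (0.757%) and 40 lower (0.24%), and past 3 there were 42 higher (0.252%) and 8 lower (0.0481%). Protein-coding genes were called higher in 24.9% and lower in 23.9%, long intergenic RNAs in 10.7% and 14%, and antisense genes in 7.82% and 10.1%. The kit is a directional one, but the strand setting of the counting is not given in the sources used here, so antisense genes and their partners are uncertain. Against 20 ug/mL of the same extract, 6815 genes (41%) were called, 3476 higher (20.9%) and 3339 lower (20.1%). Of the 3583 genes higher than vehicle 2953 (82.4%) were also higher than at 20 ug/mL, which is 85% of that second list, and 2819 of the 3475 lower genes (81.1%; 84.4% of the second list) were also lower. Both comparisons use the same 500 ug/mL libraries.

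The genes with the largest rises among those with at least 5 CPM on average in either group included FOS, IGFBP1, FOSB, AQP3, CA9, LCN15, RASD1, RBM24, CYP1A1, PHLDA2, EGR1, MMP3, CXCL8 and GDF15, with log2 changes from 4.15 down to 2.43. The largest falls were those of MT1F, MT1G, MT1X, ACSM2A, MT1E, KNG1, HAMP, TJP3, GSTA1, ACSM2B, NR1H4, GSTA2, KANK4, BHMT and SLC22A7, from -3.73 to -1.57. IGFBP1 (chr7:45888357-45893668, GRCh38), a liver-secreted binding protein for insulin-like growth factors, went from 37.5, 37.0 and 44.8 CPM to 699, 661 and 673 CPM, a log2 change of 4.09 ± 0.092 (SE, n = 3 and 3; edgeR adjusted p 1.80e-36). The dried ginger libraries lay close together and far above all vehicle libraries. AQP3 (chr9:33441154-33447633), a channel for water and glycerol, went from 4.24, 4.06 and 3.65 CPM to 38.7, 31.9 and 30.8 CPM, a log2 change of 3.08 ± 0.088. PHLDA2, a growth-restricting imprinted gene, was at 12.5, 5.38 and 6.04 CPM, so that replicate 1 was high. Its log2 change was 2.51 with all libraries and 2.04 without that replicate.

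**Figure D1:**
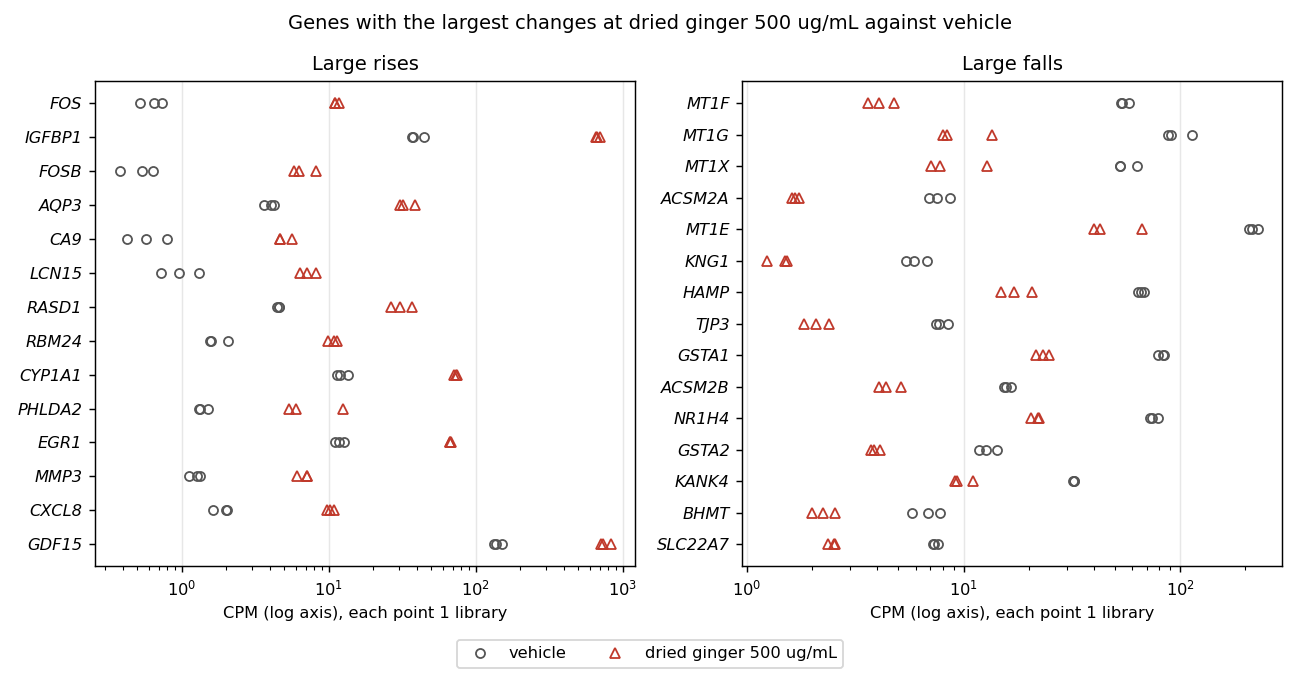
Genes with the largest rises (left) and falls (right) at dried ginger 500 ug/mL, by CPM on a log axis, with each point 1 library, circles for vehicle and triangles for dried ginger. No gene shown has overlapping groups, and replicate 1 of dried ginger is the high point for PHLDA2 (12.5 CPM) and MT1E (66.5 CPM).

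Immediate early genes were higher almost throughout their list. Of 19 tested members of the AP-1 and immediate early list (20 in the table), 17 were called higher and 0 lower, with a median log2 change of 1.54 against -0.004 over all genes. FOS (chr14:75278774-75282230), the partner of JUN in the AP-1 factor, was at 0.732, 0.646 and 0.521 CPM in vehicle and at 11.8, 11.1 and 11.1 CPM with dried ginger (log2 4.15 ± 0.20, adjusted p 2.73e-23). FOSB, a FOS relative, went from 0.540, 0.380 and 0.641 CPM to 8.25, 5.86 and 6.31 CPM, a log2 change of 3.70. JUNB, another AP-1 subunit, rose by 2.24, ATF3, a stress-induced partner of JUN, by 2.13 and JUN itself by 1.71. EGR1 (chr5:138465490-138469315), a zinc finger factor, was at 11.7, 11.1 and 12.8 CPM and then at 67.3, 67.2 and 68.2 CPM, a log2 change of 2.51 ± 0.065. Each of these genes was higher in every dried ginger library than in any vehicle library. SRF binds CArG boxes in the promoters of several immediate early genes. Among the 14 members with an entry in the RefSeq promoter table (300 bases, 250 before to 50 after the start), EGR1, EGR2 and SRF hold a CArG box on either strand, against 1.29% of all 35116 promoters. The AP-1 site TGACTCA or TGAGTCA stands in 1 of the 14 (FOSL2), against 4.95% of all promoters, and a match in letters is no evidence of binding. For either motif a member counts if any of its promoter entries holds it, whereas the share over all is per promoter. The EGR1 promoter is shown because it holds 2 such boxes, in capitals, in the 250 bases before the RefSeq start (GRCh38.p14, chr5:138465229-138465478, plus strand):
EGR1: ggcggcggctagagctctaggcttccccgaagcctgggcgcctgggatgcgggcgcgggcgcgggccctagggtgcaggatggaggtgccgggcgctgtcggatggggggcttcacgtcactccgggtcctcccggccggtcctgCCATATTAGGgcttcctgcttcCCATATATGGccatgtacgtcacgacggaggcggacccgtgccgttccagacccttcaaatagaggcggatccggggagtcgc

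Ligands of the EGF receptor and the feedback inhibitors of the ERK kinases moved the same way. Of 9 tested EGFR family genes (15 in the table), 6 were higher and 2 lower. HBEGF, a membrane-bound ligand that is shed from the cell, was at 2.04, 1.82 and 2.08 CPM in vehicle and 8.74, 8.80 and 9.18 CPM with dried ginger, a log2 change of 2.17 ± 0.12. AREG rose by 1.46, EREG by 1.20 and the receptor EGFR by 1.08. Of 15 ERK feedback genes 13 were higher and 0 lower, with a median of 1.00. DUSP5 and DUSP6, phosphatases that switch off ERK, rose by 2.13 and 1.12, and SPRY4, a docking protein that damps receptor signals, by 1.47. DUSP5 went from 3.85, 3.91 and 4.41 CPM to 18.0, 18.0 and 17.4 CPM. SPRY4 went from 54.4, 52.1 and 54.7 CPM to 153, 149 and 144 CPM. Both show a tight dried ginger group well clear of vehicle.

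Genes of the NF-kappaB list were also higher. Of 19 tested members (25 in the table), 16 were called higher and 0 lower, with a median log2 change of 1.56. CXCL8, the neutrophil attractant interleukin 8, went from 2.00, 2.05 and 1.64 CPM to 10.2, 9.79 and 10.9 CPM. BIRC3, an inhibitor of cell death, rose by 1.79, LIF, a cytokine of the interleukin 6 family, by 1.84, and TNFAIP3, a deubiquitinase that ends NF-kappaB signals, by 0.91. NFKBIA, the inhibitor that NF-kappaB itself induces, was called at 500 ug/mL with 0.41 and stood at 0.01 at 100 ug/mL. TNF was barely detected: 1 count in the 3 vehicle libraries together and 56 in the dried ginger libraries, a ratio of 55.7 with a counting interval (95%) from 9.6 to 2240. Interferon response genes showed no common direction, with 4 of 17 higher and 6 lower, ISG20 up by 1.23 and IFIT1 and MX1 down by 0.82 and 0.67. Of the leukocyte markers, PTPRC and CD3E had 0 counts in vehicle and 1 with dried ginger. CD68, a macrophage marker, was higher, from 31.3, 29.4 and 26.8 CPM to 46.2, 41.0 and 42.6 CPM (log2 0.57), and so was LYZ, lysozyme, from 1366, 1373 and 1379 CPM to 2606, 2666 and 2664 CPM (log2 0.95). Their part in the NF-kappaB values was not tested.

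Many genes of the matrix and its proteases were higher. Of 17 tested proteases, plasminogen activators and their inhibitors, 11 were higher and 1 lower, with a median of 0.65. MMP3, a secreted stromelysin, was at 1.27, 1.33 and 1.12 CPM in vehicle and 7.11, 6.08 and 7.10 CPM with dried ginger (log2 2.44 ± 0.14), and its value at 100 ug/mL was 0.12, not called. PLAU, the urokinase that activates plasminogen, rose by 1.63, TIMP1, an inhibitor of matrix proteases, by 1.21 and PLAUR, the urokinase receptor, by 0.77. MMP11 went the other way, from 10.2, 10.1 and 9.77 CPM to 3.70, 4.26 and 4.47 CPM, a log2 change of -1.27. Of 23 integrin and matrix genes 13 were higher and 2 lower (4 lower without replicate 1 of dried ginger, and up to 5 under the alternatives). ITGA2, the collagen-binding integrin chain, went from 83.4, 82.0 and 82.4 CPM to 330, 334 and 312 CPM (log2 1.98), and FN1, fibronectin, rose by 0.57. Targets of YAP and SRF were higher in 12 of 23 and lower in 2, and CCN1 (log2 2.06), FHL2 (1.49) and AXL (1.47) led them. TGF-beta and BMP targets were split, 6 higher and 8 lower of 20: TGFB1 rose by 0.94, while SMAD7, an inhibitor of the pathway, fell by 0.25, ID1, a BMP target, by 0.33 and HAMP by 1.91. HAMP codes for hepcidin, the iron hormone, and stood at 68.2, 66.0 and 63.9 CPM in vehicle and 20.8, 14.9 and 17.1 CPM with dried ginger. Of the markers for other cell types PDGFRB, a mural cell receptor, rose by 0.86, while RGS5 and ACTA2, which also mark mural cells, fell by 0.74 and 0.64. The call of RGS5 was lost without replicate 2 or 3 of dried ginger, without replicate 2 of vehicle and in a fit of only these groups. COL1A2 and DCN had no count in any of the 6 libraries, and COL1A1 was not called.

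The largest falls among the members of the gene lists were those of metallothioneins. Their genes lie in 1 cluster on chromosome 16 and are close copies, so the estimates for single copies are uncertain. MT1F (chr16:56657694-56660698) went from 53.7, 53.5 and 58.0 CPM to 4.79, 4.08 and 3.61 CPM, a log2 change of -3.73 ± 0.094 (adjusted p 1.27e-34). MT1X was at 52.8, 52.6 and 63.3 CPM and then at 12.8, 7.79 and 7.06 CPM, and MT1E at 208, 215 and 229 CPM and then at 66.5, 40.0 and 42.5 CPM. In all 3 genes the groups stood far apart, with replicate 1 of dried ginger the highest of its group. MT1G fell by 3.29. MT1M had 3 counts in the dried ginger libraries together against 140 in vehicle, a ratio of vehicle over dried ginger of 46.9 with a counting interval (95%) from 15.7 to 230. MT2A (chr16:56608199-56609497), which codes for the other main metallothionein, was at 368, 344 and 446 CPM in vehicle and at 432, 253 and 232 CPM with dried ginger, so the groups overlapped. Its log2 change of -0.34 ± 0.13 (adjusted p 0.0280) became -0.67 (adjusted p 1.88e-06) without replicate 1, and the call was lost without replicate 2 or 3 of dried ginger, without replicate 3 of vehicle and in a fit of only these groups (adjusted p 0.191 to 0.313). At 100 ug/mL MT2A stood lower, at 160, 143 and 136 CPM, and the difference between the 2 doses was 1.06 on the log2 scale (adjusted p 5.79e-09). The 253 and 232 CPM of the other dried ginger libraries also lay above all 3 libraries at 100 ug/mL. The zinc exporter SLC30A1, another MTF1 target, fell by 0.84 and the importer SLC39A10 rose by 1.57, from 13.84, 13.37 and 13.02 CPM to 34.2, 42.4 and 42.8 CPM. In all, 5 of 20 tested members of the zinc list (25 in the table) were higher and 11 lower, with a median of -0.20. At 20 ug/mL 2 of the 20 were already higher and 7 lower than vehicle, where 0.024% and 0.0601% of all genes were called. Between 500 and 20 ug/mL, without vehicle, 7 were higher and 9 lower, with a median of -0.06. Over all genes that comparison called 20.9% higher and 20.1% lower.

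The core of the metal response element, TGCACNC or TGCGCNC on either strand, stands in 29.6% of all promoters of 300 bases and in 8 of the 13 members of the zinc list with an entry in the RefSeq table (61.5%). These shares differ in unit: a member counts if any of its promoter entries holds the core, and the share over all is per promoter. The promoters of MT1X and MT2A are shown because both hold several cores while their responses to 500 ug/mL differed in size. Each run is the 250 bases before the RefSeq start on the plus strand of GRCh38.p14, at chr16:56682220-56682469 for MT1X and chr16:56608334-56608583 for MT2A, with the cores in capitals and, in MT2A, also the AP-1 site TGACTCA. The GENCODE gene of MT2A starts before this window and that of MT1X inside it.
MT1X: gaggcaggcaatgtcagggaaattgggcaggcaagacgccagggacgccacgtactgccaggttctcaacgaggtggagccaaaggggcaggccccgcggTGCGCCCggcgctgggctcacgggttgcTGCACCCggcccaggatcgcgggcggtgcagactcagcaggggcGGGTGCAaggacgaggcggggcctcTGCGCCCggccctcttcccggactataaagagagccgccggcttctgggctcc
MT2A: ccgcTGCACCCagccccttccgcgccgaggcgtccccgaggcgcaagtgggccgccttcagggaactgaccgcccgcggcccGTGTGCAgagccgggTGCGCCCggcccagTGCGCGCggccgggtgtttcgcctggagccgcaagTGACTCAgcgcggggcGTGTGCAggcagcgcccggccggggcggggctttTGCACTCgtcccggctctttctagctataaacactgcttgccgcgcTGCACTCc
The MT1X run holds 4 cores and the MT2A run 7 cores and 1 AP-1 site. These counts describe letters in a window and say nothing about which factor was bound.

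Genes of foreign compound handling changed in opposite directions. CYP1A1 (chr15:74719542-74725610), the classic target of the aryl hydrocarbon receptor, went from 11.5, 11.9 and 13.6 CPM to 74.6, 71.8 and 73.1 CPM (log2 2.57 ± 0.092), and 4 of the 10 genes of the receptor's list were higher and 0 lower: CYP1A1, CYP1A2, NQO1 (0.57) and the receptor gene AHR itself (0.38). CYP1A2 was at 0 in the 3 vehicle libraries and had 13 counts with dried ginger. That is 4.31-fold over a floor of 3 counts for the group, and the counting interval (95%) of the ratio starts at 3.03. At 20 ug/mL CYP1A2 averaged 0.081 CPM against 0.167 CPM at 500 ug/mL, and that difference (log2 0.955) was not called. Between these doses, without vehicle, 3 of the 10 genes of the list were higher and 1 lower. TIPARP, another target of that receptor, stood at -0.07 and was not called. Conjugating enzymes were lower in 12 of 28 and higher in 4. GSTA1, a glutathione transferase, fell from 83.3, 84.2 and 79.0 CPM to 21.5, 23.2 and 24.8 CPM (log2 -1.82), and GSTA2, a near-identical copy, by 1.72. ACSM2A and ACSM2B, another pair of close copies that activate medium-chain acids, fell by 2.20 and 1.81, and SULT2A1, a steroid sulfotransferase, by 0.90. Of 17 drug transporters 7 were higher and 7 lower, where 21.5% of all genes were called higher and 20.9% lower. ABCC2, an exporter of conjugates into bile, rose by 1.08, while ABCC6 fell by 0.783. The uptake carriers SLC22A7 and SLCO4C1 fell by 1.57 and 1.40, while SLCO4A1 rose by 0.875. In the list of cytochromes P450 2, 3 and 4, PXR and CAR, 6 of 20 were higher and 8 lower. CYP3A5 rose by 1.04 and CYP2S1 by 1.41, while CYP4F2 fell by 0.897 and CYP3A43, at 0.557 CPM on average in vehicle, by 1.706.

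Stress programmes differed in how much of each list moved. Of 26 NRF2 targets 20 were higher and 2 lower (median 0.39). AKR1B10, an aldo-keto reductase, went from 98.0, 97.0 and 97.3 CPM to 337, 362 and 356 CPM, SLC7A11, the cystine importer, rose by 1.73, and GCLC and GCLM, both chains of the enzyme for glutathione synthesis, by 0.97 and 0.87. HMOX1, haem oxygenase 1, was at 51.8, 54.0 and 54.6 CPM in vehicle and 50.6, 51.2 and 50.8 CPM with dried ginger and was not called. Of 29 ATF4 targets 18 were higher and 4 lower (median 0.26), with ASNS, asparagine synthetase, up by 0.61, PSAT1, a serine synthesis enzyme, down by 0.23 and DDIT3, the death-linked factor CHOP, at 0.07 and not called. Heat shock proteins leaned down, with 2 of 19 higher and 8 lower, among them HSP90AA1 with -0.36 and the near-identical copies HSPA1A and HSPA1B with -0.36 and -0.39. Chaperones of the endoplasmic reticulum were split, 8 of 22 higher and 5 lower, with 3 lower without replicate 3 of dried ginger or without replicate 1 of vehicle, 2 without a filter on low counts and 1 in a fit of only these groups. Of 24 p53 targets 15 were higher and 4 lower, led by PLK3 (1.26), PLK2 (1.17) and CDKN1A (1.08), while MDM2, the p53 ligase, rose by 0.34. Autophagy and lysosome genes were higher in 18 of 28 and lower in 1. SQSTM1, the cargo receptor p62, went from 222, 235 and 239 CPM to 708, 589 and 625 CPM.

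The hypoxia list was higher in 19 of 24 genes and lower in 0, with a median of 0.66, where 21.5% of all genes were called higher. In 19 the dried ginger libraries all lay above those of vehicle, as in 24.7% of all genes. CA9, a surface carbonic anhydrase, went from 0.424, 0.570 and 0.801 CPM to 4.67, 5.68 and 4.67 CPM, PFKFB3, which makes the activator of phosphofructokinase, from 5.32, 6.34 and 5.89 CPM to 20.1, 20.2 and 18.7 CPM, and NDRG1 rose by 1.64. The glycolysis list was higher in 18 of 24 and lower in 2. SLC2A1, the glucose importer GLUT1, stood at 543, 516 and 554 CPM and then at 1120, 1123 and 1095 CPM, with all 3 dried ginger libraries close to one another. LDHA, lactate dehydrogenase, rose by 0.58, while PKLR, the liver form of pyruvate kinase, fell by 0.77. VEGFA, a vessel growth factor, rose by 0.53. Hypoxia response element cores (ACGTG or GCGTG) stand in 18 of 20 list members with a promoter entry, but also in 48.4% of all promoters. Here too members are counted by gene, over any promoter entry, and the share over all is per promoter.

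Many secreted proteins of the hepatocyte were lower. In the coagulation list 14 of 28 were lower and 5 higher, in complement 15 of 25 and 3, and among acute phase proteins 10 of 15 and 2, with medians of -0.37, -0.28 and -0.70. The 3 fibrinogen chain genes, neighbours on chromosome 4, fell together, FGA by 1.24, FGG by 1.14 and FGB by 0.94. FGG went from 1084, 1014 and 1100 CPM to 466, 498 and 487 CPM, FGA from 1003, 962 and 1021 CPM to 422, 422 and 419 CPM. HP, haptoglobin, fell by 1.25 and HPX, haemopexin, by 1.10, which bind free haemoglobin and haem, and KNG1, the kininogen, fell by 2.08. CP, the copper carrier ceruloplasmin, rose against this trend, from 68.7, 64.1 and 73.7 CPM to 174, 188 and 174 CPM (log2 1.38). SERPINA1, antitrypsin, stayed at 5388, 5099 and 5328 CPM against 5267, 5032 and 5176 CPM and was not called. Albumin (ALB) was at 10312, 10708 and 10848 CPM in vehicle and 7252, 9274 and 9101 CPM with dried ginger: its log2 change of -0.31 was -0.21 without replicate 1.

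Of the transcription factors of the hepatocyte, 8 of 24 were higher and 12 lower. NR1H4 (chr12:100473708-100564413), the bile acid receptor FXR, fell from 74.4, 79.5 and 72.9 CPM to 20.4, 22.2 and 22.4 CPM (log2 -1.80 ± 0.054). NR0B2, the repressor SHP that NR1H4 is known to induce, was higher, at 82.7, 76.7 and 74.1 CPM against 42.1, 40.1 and 42.1 CPM. CEBPA was at 123 CPM in each vehicle library and at 84.0, 51.6 and 54.2 CPM with dried ginger, and its log2 change of -0.96 became -1.22 without replicate 1. HNF4A fell by 0.35. Bile acid genes were lower in 9 of 18 and higher in 3, with AKR1D1, a steroid reductase of the pathway, down by 1.17 and BAAT, which conjugates bile acids, up by 0.97. Of 27 urea cycle and amino acid genes 8 were higher and 11 lower: CPS1, the entry enzyme of the urea cycle, fell by 0.62, and ARG2, the mitochondrial arginase, rose by 1.05. The clock output factors DBP and TEF fell by 1.24 and 0.83, and BHLHE40, a clock repressor, rose by 1.73.

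Genes of sterol and fatty acid synthesis were lower together. Of 25 cholesterol synthesis genes 22 were lower and 1 higher, with a median of -0.71. HMGCS1, which makes the precursor of mevalonate, went from 491, 495 and 467 CPM to 251, 234 and 234 CPM, and SQLE, squalene epoxidase, fell by 0.88. Of 22 fatty acid and triglyceride genes 18 were lower and 2 higher, led by GPAM, the first enzyme of triglyceride assembly (-1.33), and ACSS2, which activates acetate (-0.99). SCD, a desaturase, and FASN, the fatty acid synthase, fell by 0.48 and 0.40. PLIN2, the coat protein of lipid droplets, rose from 121, 120 and 127 CPM to 314, 339 and 345 CPM (log2 1.44), and CPT1A, the gate of fatty acid oxidation, by 0.73. VNN1, a pantetheinase, rose by 2.19 from 1.23, 1.56 and 1.40 CPM. Fatty acid oxidation as a list had 7 of 19 higher and 7 lower.

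**Figure D2:**
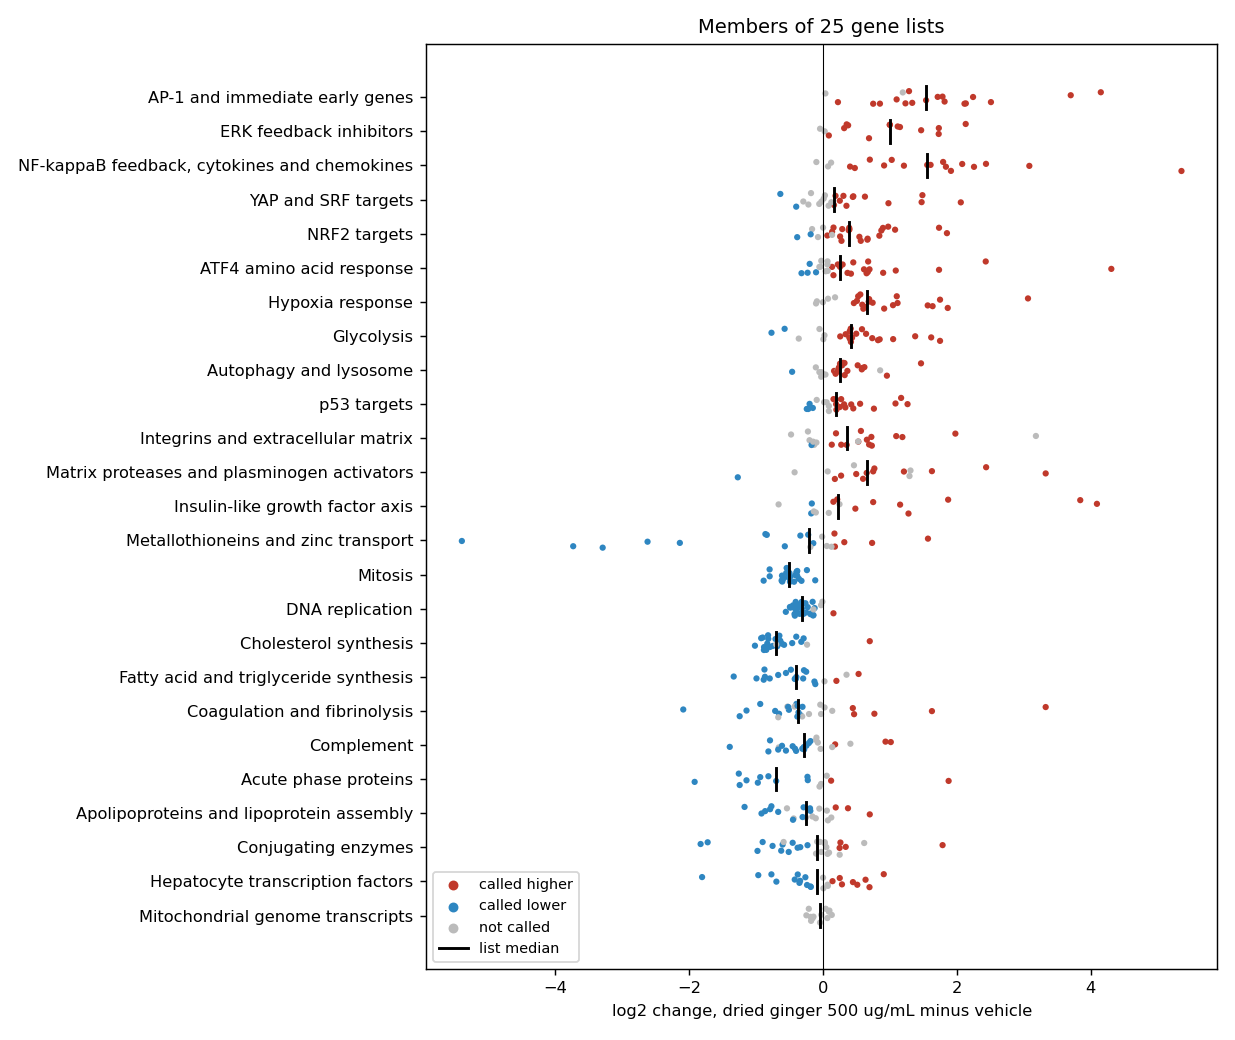
Members of 25 gene lists by log2 change at dried ginger 500 ug/mL minus vehicle, each point 1 gene, red called higher, blue called lower, grey not called, the bar the list median. AP-1, NF-kappaB and hypoxia genes lie to the right, mitosis, cholesterol synthesis and acute phase genes to the left, and metallothioneins spread farthest, down to MT1M.

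Every mitosis gene of the list was lower: 26 of 26 called, with a median of -0.50 and no overlap between the groups. Over all genes 20.9% were called lower, and 24.8% had no overlap in that direction. KIF20A, a kinesin of cell division, went from 79.4, 74.6 and 81.0 CPM to 41.8, 43.7 and 41.8 CPM (log2 -0.88), MKI67, the proliferation antigen, fell by 0.61 and CCNB1, cyclin B1, by 0.51. DNA replication genes were lower in 28 of 32 and higher in 1, with a median of -0.32. MCM2, part of the replicative helicase, fell from 181, 179 and 179 CPM to 122, 125 and 120 CPM. The exception was RRM2, a subunit of ribonucleotide reductase, at 341, 333 and 319 CPM against 384, 360 and 366 CPM (log2 0.16), whereas its partner RRM1 fell by 0.18. At 100 ug/mL 16 of 26 mitosis genes were lower and 3 of 32 replication genes, with 3 of the latter higher and a median of 0.015. Over all genes 7.75% were lower and 9.76% higher at that dose, so the replication counts are near those shares. The step from 100 to 500 ug/mL lowered 30 of the 32 replication genes and raised 0, tested without vehicle, where 11.5% of all genes were lower and 12.1% higher. Inhibitors of the cell cycle were split: CDKN2B rose by 1.39, CDKN1A by 1.08 and CDKN2A by 0.95, while CDKN2C fell by 0.90, and E2F1 at 0.02 was not called.

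**Figure D3:**
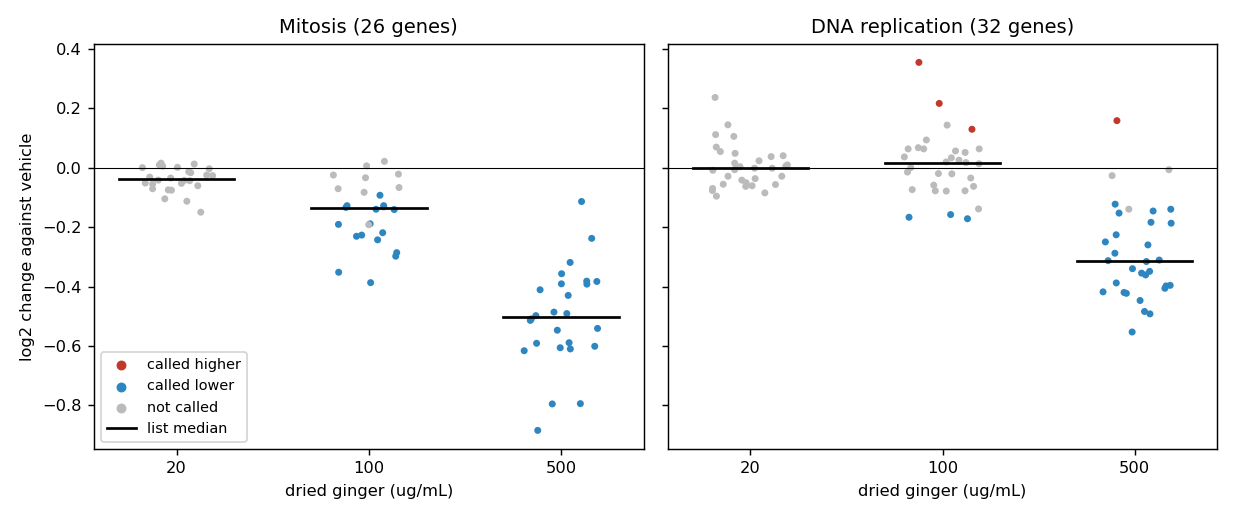
Log2 change against vehicle by dose of dried ginger for 26 mitosis genes (left) and 32 DNA replication genes (right), each point 1 gene, bars the median. Mitosis medians fall from 100 to 500 ug/mL (-0.14 and -0.50), while replication genes sit at 0.015 at 100 and at -0.32 at 500 ug/mL; all doses share the vehicle libraries.

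Structural and transport genes held some of the most abundant changes. Tubulins were higher in 7 of 13 and lower in 4: TUBB6 rose by 1.33, TUBB3 by 0.72 and TUBA4A by 0.82, while TUBB fell by 0.21. Keratin and junction genes were higher in 11 of 21 and lower in 7, with CLDN4 up by 1.04, KRT19 by 0.80 and KRT8 by 0.37, against TJP3 with -1.90 and CLDN1 with -0.37. AQP3, a water and glycerol channel, went from 4.24, 4.06 and 3.65 CPM to 38.7, 31.9 and 30.8 CPM, and SLC5A3, an importer of the osmolyte inositol, rose by 1.42 with 0.12 at 100 ug/mL, not called. Among channels that ginger phenols are known to open or that carry calcium, TRPV1 stood at -0.12 and was not called, TRPV2 rose by 1.14 and ITPR3, a calcium release channel, by 1.17, and 9 of 21 list members were higher and 1 lower. Nuclear respiratory chain genes were higher in 1 of 33 (5 without replicate 2 of dried ginger and 7 without a filter on low counts) and lower in 7 (7 to 10 under the alternatives). With 20.9% of all genes called lower, 7 of 33 is near that share, and the list median was 0.013. The mitochondrial ribosomal RNA MT-RNR1 was at 4224, 4265 and 3952 CPM in vehicle and 11867, 7138 and 8150 CPM with dried ginger, and its log2 change of 1.13 was 0.88 without replicate 1. In the list of 13 mitochondrial genome transcripts, which does not hold MT-RNR1, 0 were called higher and 0 lower, with a median of -0.042. Under the alternatives 0 to 1 were higher and 0 to 6 lower. Cytosolic ribosomal protein genes were higher in 6 of 30 with all libraries and in 0 without replicate 1 of dried ginger, and in 2 to 3 without any 1 vehicle library. Over all genes 21.5% were called higher and 20.9% lower, so 6 of 30 is near that share, and the list median was 0.019. Notch targets were higher in 4 of 11, in 1 without replicate 1 of dried ginger or without replicate 2 of vehicle, and in 2 without replicate 2 of dried ginger. Outside the plasma proteins, PEG10, a retrotransposon-derived imprinted gene, had the largest loss in CPM among called genes, from 4535, 4501 and 4519 CPM to 2665, 2856 and 2709 CPM. DHRS2, a mitochondrial reductase, fell from 2153, 2148 and 2134 CPM to 1368, 1390 and 1368 CPM and stood at -0.03 at 100 ug/mL, not called.

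The response grew with dose but not for every gene. Against the same vehicle libraries, 100 ug/mL gave 2914 called genes (17.5%; 9.76% higher and 7.75% lower) and 20 ug/mL gave 14 (0.0841%; 0.024% higher and 0.0601% lower). Between 500 and 100 ug/mL 3940 genes (23.7%) were called. CYP1A1 shows a late step, with 15.9, 13.1 and 12.6 CPM at 20, 19.3, 14.7 and 16.0 CPM at 100 and 74.6, 71.8 and 73.1 CPM at 500 ug/mL. IGFBP1 climbed earlier, to 284, 278 and 291 CPM at 100 ug/mL. Of the genes higher than vehicle, 16 were lower at 500 than at 100 ug/mL, and of those lower than vehicle, 5 were higher. LOX, which crosslinks collagen, averaged 43.2 ± 1.5 CPM (SD, n = 3) at 100 and 35.3 ± 2.1 CPM at 500 ug/mL, SLC2A3, a glucose importer, 380.9 ± 3.1 and 298.4 ± 7.3 CPM, and LCN15, a lipocalin, had log2 changes of 3.19 and 2.86. Among the 5 were MT2A, BMF, which promotes cell death, BCL6, a repressor, EPHX1, an epoxide hydrolase, and MT1A, whose call against vehicle was lost without replicate 2 or 3 of dried ginger or replicate 3 of vehicle. In 11 genes the 2 doses were called in opposite directions. TF, transferrin, was at 2545, 2545 and 2486 CPM at 100 ug/mL and 1828, 2053 and 1948 CPM at 500 ug/mL, around vehicle values of 2241, 2242 and 2399 CPM. CLDN1, a tight junction protein, had 0.13 and -0.37, MYBL2, a cell cycle factor, 0.16 and -0.19, and GFI1, a repressor, -0.20 and 0.25 on the log2 scale at 100 and 500 ug/mL.

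**Figure D4:**
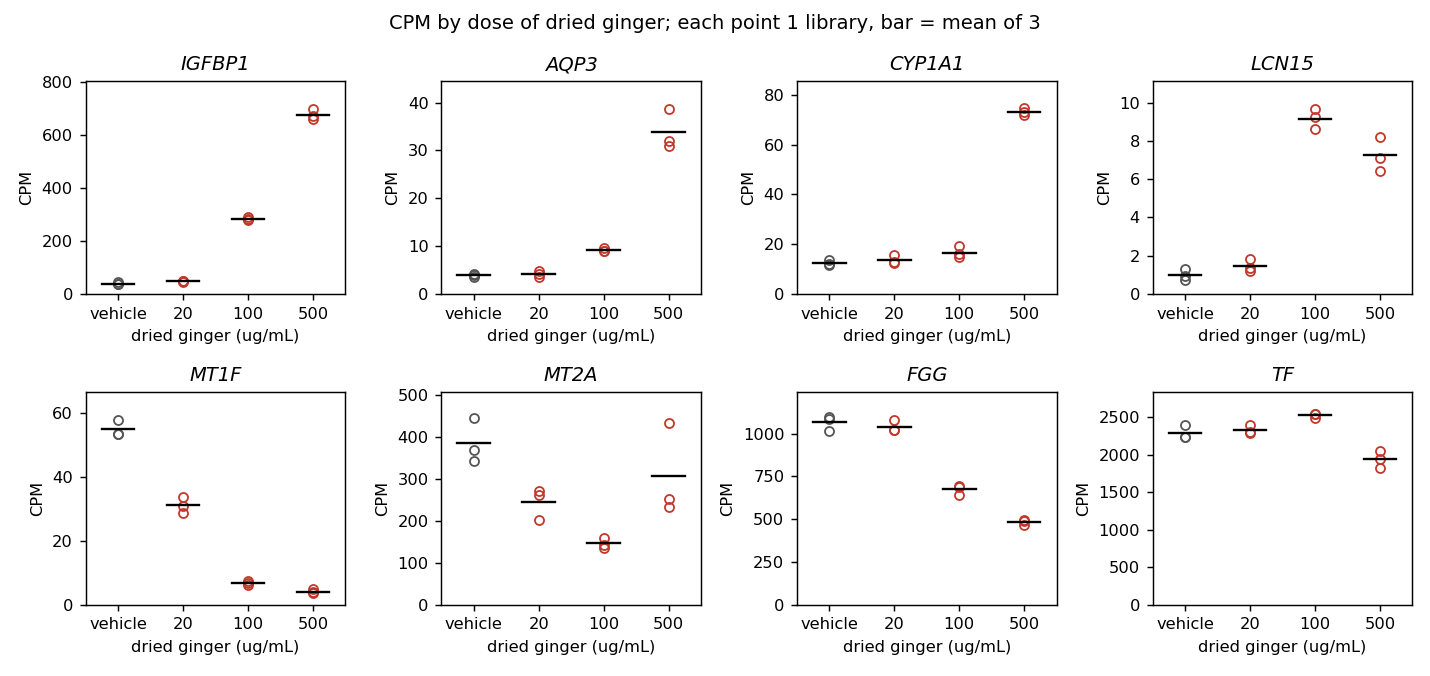
CPM of 8 genes in vehicle and at 20, 100 and 500 ug/mL of dried ginger, each point 1 library, bars the mean of 3. IGFBP1, AQP3 and CYP1A1 are highest at 500 ug/mL, LCN15 is highest at 100 ug/mL, MT2A is lowest at 100 ug/mL, and TF is above vehicle at 100 and below it at 500 ug/mL.

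Ginger labelled as fresh, at the same dose, differed from dried ginger in few genes, with 160 genes (0.961%) higher and 145 (0.871%) lower than with dried ginger, 305 (1.83%) in all. With all libraries fitted, 9 of 19 NF-kappaB genes were lower with fresh ginger and 0 higher, 10 of 26 mitosis genes were lower and 0 higher, and 11 of 26 NRF2 targets were higher and 0 lower. These counts are not stable: a fit of these 2 groups alone called 3 NF-kappaB genes lower, 0 mitosis genes and 2 NRF2 targets higher. NF-kappaB genes fell to 5 and NRF2 targets to 5 without replicate 1 of dried ginger, NRF2 targets to 4 without replicate 3 of fresh ginger, and mitosis genes to 6 and 5 without replicate 1 or 2 of fresh ginger. CXCL8 was at 6.61, 6.90 and 7.41 CPM with fresh ginger, below all dried ginger libraries and above vehicle, a log2 difference of -0.56 ± 0.11 (edgeR adjusted p 0.000941). UBD, a ubiquitin-like protein, was at 23.6, 25.5 and 23.1 CPM with fresh and 42.1, 41.2 and 40.4 CPM with dried ginger, against 21.3, 20.6 and 20.4 CPM in vehicle. MMP3 and IGFBP3, a second growth factor binding protein, were higher with fresh ginger by 0.80 and 0.87. PLIN2 was also higher, by 0.48, at 445, 475 and 469 CPM. CYP1A1 did not pass the test, with -0.04 ± 0.08. The count of genes that differ rests on the spread used: a fit of these 2 groups alone called 29, and leaving out replicate 1 of dried ginger gave 158. Leaving out replicate 2 of dried ginger gave 605, and leaving out replicate 2 or 3 of fresh ginger gave 195 and 159.

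**Figure D5:**
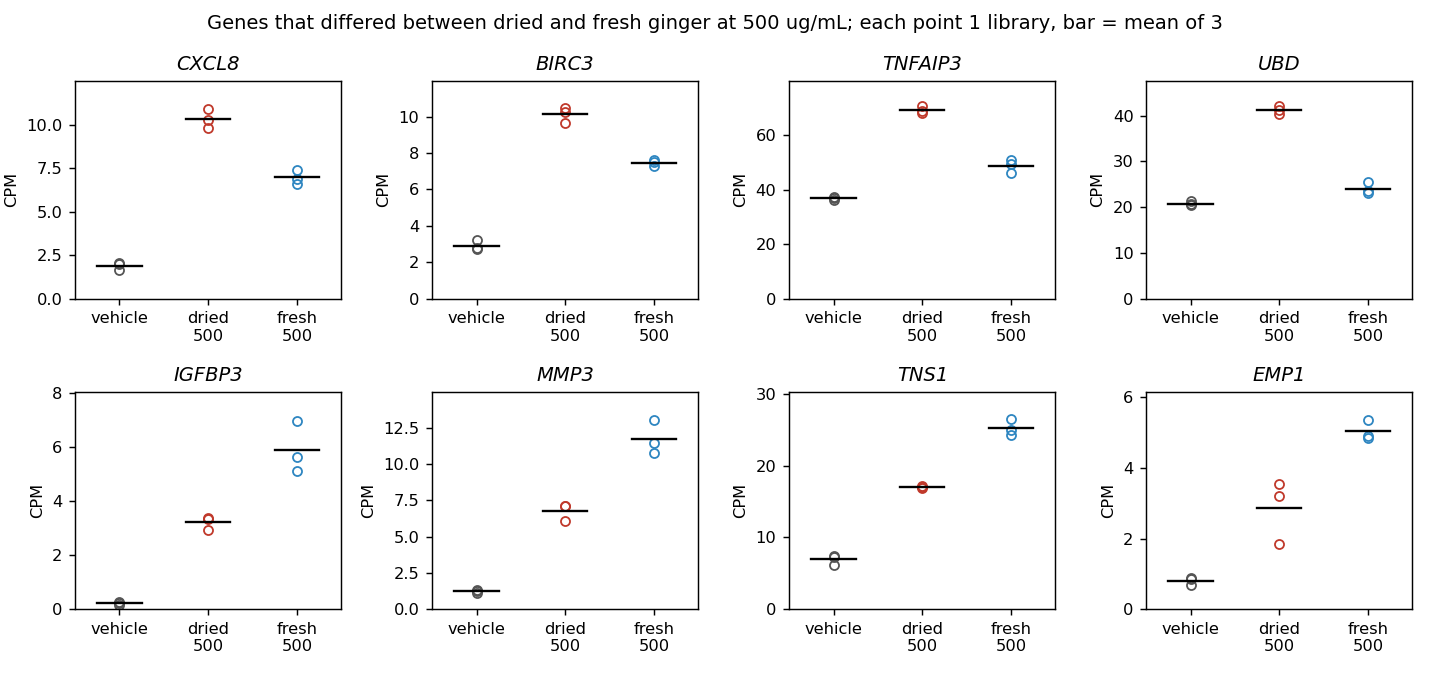
CPM of 8 genes in vehicle, dried ginger and fresh ginger, both at 500 ug/mL, each point 1 library, bars the mean of 3. CXCL8, BIRC3, TNFAIP3 and UBD (top) are highest with dried ginger, and IGFBP3, MMP3, TNS1 and EMP1 (bottom) are highest with fresh ginger.

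Set against Scutellariae Radix at the same dose, 6098 genes (36.6%) differed, 2810 higher (16.9%) and 3288 lower (19.8%) than with dried ginger. The titles of the Scutellariae Radix samples carry another number than those of dried ginger. This comparison may therefore cross a handling group too, and the extract and that number cannot be told apart. Glycolysis and hypoxia genes were higher with dried ginger: 20 of 24 and 19 of 24 were lower with Scutellariae Radix, CA9 by 2.88 and PFKFB3 by 1.87 on the log2 scale. The NF-kappaB list was lower with Scutellariae Radix in 13 of 19 and higher in 2. Cholesterol synthesis was lower with dried ginger, with 20 of 25 genes higher with Scutellariae Radix and 1 lower, while 23 of 24 p53 targets and 9 of 10 genes of the aryl hydrocarbon receptor list were higher there, CYP1A1 by 3.48. FOS, HBEGF and CXCL8 were not called between the extracts, with -0.31, 0.04 and 0.02, but other members of their lists were. Of 19 AP-1 and immediate early genes 6 were higher and 3 lower with Scutellariae Radix. Of 9 EGFR family genes 3 were higher and 3 lower there, and of 15 ERK feedback genes 4 and 5.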

How the data were processed

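RNA from the HepG2 samples had been sequenced as paired reads. The deposited values are RSEM expected counts per gene, in 1 table of 267 columns, of which 208 map to no sample used here and were left out. Per the submitters' processing notes, RSEM 1.3.3 and STAR 2.7.3a were used with GRCh38, beside Trim Galore 0.6.5 and FastQC 0.11.9. The annotation, like the strand setting, is not given in the sources used here. In the deposited expected counts 24.44% of values above 0 were not whole, so values were rounded. Symbols came from a gene name table and positions from GENCODE 29.

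All 59 libraries in 20 groups were fitted with edgeR 4.0.16 (TMM, filterByExpr by group, glmQLFit and glmQLFTest in R 4.3.3), adjusted by Benjamini-Hochberg over 16641 genes of 60675. The common dispersion was 0.00195, with 39 residual degrees of freedom. Each SE is the absolute log2 change divided by the square root of the F value of the same test. CPM used TMM-scaled totals. Precision is limited by 3 libraries a group. Intervals on low counts and the floor of 3 counts cover counting error only. Alternatives were RLE size factors, 2 other filters on low counts, DESeq2 1.42.0, limma 3.58.1 with sample weights, a replicate block, fits of fewer groups and leaving out libraries. The scripts were tested on simulated counts.

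The members and lists were chosen with earlier results of these data known, so list counts are descriptions. Genes were named by rule: the 15 largest rises and falls with at least 5 CPM and no overlap, up to 4 called members and the key members of each of 56 lists, and up to 8 genes each by gain or loss in CPM, opposite doses, fresh against dried, and change at any level. Some genes that the rule names are not reported here. ACTA2, CD68, RGS5, ACO1, TFR2, EGR2, FOSL2, LOX, SLC2A3, MT1A, BMF, BCL6, EPHX1, ABCC6 and COL1A1 were named after their values were seen.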

Additional observations from a re-analysis of the deposited data

How the results depend on the processing

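The count of genes called at 500 ug/mL against vehicle (7058) stayed within 1.5 times under every alternative run, from 6102 in a fit of only these groups to 7511 without 2 libraries of other groups that stand apart, an alternative chosen after the data were seen. Leaving out 1 library of either group gave 6296 to 6523. With the replicate number as a block 7089 genes were called, and 343 between the gingers. The numbers do not pair these samples: deviations of same-numbered libraries correlated by -0.03 to 0.008. HBA1, ABCC6, SLCO4A1, CYP3A43 and CYP4F2 were not followed through the alternatives. Of the 172 other called genes in the text, 167 kept their call under every alternative that gave a value for the gene (up to 15), and 0 reversed. The exceptions were MT2A, MT1A, CYP7A1, RGS5 and CHAC1. The count of 14 genes at 20 ug/mL is the least stable: 255 without a filter, 49 without 3 libraries that stand apart, 30 without 2 of them, 322 in a fit of only the groups compared and 162 with limma voom, and 6 to 10 with 1 library left out. Fresh against dried ginger (305) gave 501 without a filter, 466 without 2 libraries of other groups, 29 in a fit of only these groups, and 158 to 605 with 1 library left out, lowest without replicate 1 of dried ginger. The cause was not tested. Genes with few counts rest on sampling: TNF had 1 count and CYP1A2 and CHAC1 had 0 in the vehicle libraries together.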

Other observations

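In the insulin-like growth factor list 9 of 16 genes were higher and 2 lower (0 to 5 lower under the alternatives, with 4 without replicate 1 of dried ginger, 1 without its replicate 2, 0 without its replicate 3, and 0, 3 and 1 without replicate 1, 2 or 3 of vehicle), and IGFBP6, a binding protein that prefers IGF2, rose by 1.28. Mucins, trefoil factors and lipocalins were higher in 5 of 10 tested (18 in the table) and lower in 1 (2 to 5 higher under the alternatives), led by LCN15 with 0.964, 0.722 and 1.32 CPM in vehicle and 6.42, 8.22 and 7.10 CPM with dried ginger. RASD1, a small GTPase that glucocorticoids induce, went from 4.47, 4.60 and 4.61 CPM to 37.1, 26.6 and 30.7 CPM, with no overlap. RBM24, an RNA-binding protein of muscle, went from 2.08, 1.59 and 1.56 CPM to 9.96, 10.9 and 11.3 CPM. Of enzymes that handle methyl groups, chosen after their values were seen, BHMT, which remethylates homocysteine, fell by 1.58, GNMT, a glycine methyltransferase, by 1.69 and MAT1A, which makes the methyl donor, by 0.51.

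The ferroptosis and iron list was split, with 5 of 19 genes higher and 8 lower and a median of -0.07. ACSL4, which activates arachidonic acid, fell by 0.44, TFR2, a transferrin receptor of the liver, by 0.38 and ACO1, an iron regulatory protein, by 0.32. FTH1 and FTL, the chains of the iron store ferritin, rose by 0.55 and 0.39, TFRC, the transferrin receptor, by 0.50 and SLC40A1, the iron exporter, by 0.35. CHAC1, which breaks down glutathione, was the fifth gene called higher, a call lost without replicate 2 of dried ginger. CHAC1 had 0 counts in the vehicle libraries and 7 in the dried ginger libraries together, and the counting interval (95%) of the ratio starts at 1.43. CYP7A1, the rate-limiting enzyme of bile acid synthesis, had 31 counts in the vehicle libraries and 10 with dried ginger, a ratio of 3.11 with a counting interval (95%) from 1.49 to 7.12, and its log2 change was -1.60 (edgeR adjusted p 0.00743), a call lost without replicate 1 of vehicle (-1.16, adjusted p 0.105). Jagged 1 (JAG1), a Notch ligand, rose from 129, 129 and 126 CPM to 288, 326 and 316 CPM. GDF15, a stress hormone, went from 137, 134 and 151 CPM to 829, 715 and 731 CPM. In each of these genes the values describe these 6 libraries, and no explanation was tested.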
